A study of Mus musculus with 12 samples.

Results

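The genes described here are the 3 chemokines that bind CXCR3, Cxcl9, Cxcl10 and Cxcl11, together with Ccl5 (RANTES). They were chosen by name, and their array probes were found through the RefSeq transcript that each probe is annotated with. Of these 4 genes, 3 had a probe matched to them in this way, 1 probe each, and these 3 are among the 13283 named genes tested. Cxcl10 was read by A_55_P2016462 (NM_021274), Cxcl9 by A_51_P461665 (NM_008599) and Ccl5 by A_52_P638459 (NM_013653). The gene table lists Cxcl11 as a transcribed pseudogene in this assembly, 0 probes matched it through that table, and it is not analysed further. Probes whose accession the table pairs with no gene, bright ones among them, were left unnamed. The array may therefore hold a probe for Cxcl11 that was not recognised, and whether any of them reads Cxcl11 was not tested. All 3 measured genes were well above background on all 12 arrays.

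RNA came from macrophages of the abdominal cavity of C57/BL6 mice, kept in DMEM with FBS and labelled with Cy3 for single-channel Agilent arrays. The mice were knocked out for GPR15, a G protein-coupled receptor that guides T cells to the gut (KO), or were wild type (WT), and the cells were exposed for 4 h to lipopolysaccharide (LPS, a component of Gram-negative bacterial walls) at 100 ng/ml or to PBS. There were 3 arrays for each of KO LPS, WT LPS, KO PBS and WT PBS. How the knockout was made, how the macrophages were purified and whether replicates came from separate mice are not given in the sources used here, so the spread behind the p-values may be technical.

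Chemokines are small secreted proteins that direct cell migration. Cxcl9, Cxcl10 and Cxcl11 are classic interferon-induced chemokines, and their receptor CXCR3 sits mainly on activated T cells and natural killer (NK) cells. Cxcl9 is known chiefly as a target of interferon-gamma, whereas Cxcl10 also answers to type I interferon and to NF-kB. Ccl5 acts through CC chemokine receptors and draws T cells, monocytes and eosinophils. In macrophages, LPS acts through TLR4, whose TRIF branch activates IRF3 and the interferon-beta gene, while NF-kB is activated in parallel.

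The 250 bases before the annotated start of Cxcl10 and Cxcl9 are shown because both genes lie close together on chromosome 5 and differed in their response to LPS. They are RefSeq sequences of GRCm38.p6 on the minus strand, chr5:92348890-92349139 for Cxcl10 and chr5:92328080-92328329 for Cxcl9. Of the 4 genes, 2 had an entry. Capitals mark matches to an interferon-stimulated response element (ISRE) core, to NF-kB motifs and to an AP-1 motif.
Cxcl10: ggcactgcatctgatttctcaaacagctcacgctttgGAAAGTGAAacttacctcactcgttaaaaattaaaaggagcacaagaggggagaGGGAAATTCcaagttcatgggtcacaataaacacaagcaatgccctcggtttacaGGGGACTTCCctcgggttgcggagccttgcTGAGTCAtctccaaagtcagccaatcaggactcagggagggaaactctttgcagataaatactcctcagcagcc
Cxcl9: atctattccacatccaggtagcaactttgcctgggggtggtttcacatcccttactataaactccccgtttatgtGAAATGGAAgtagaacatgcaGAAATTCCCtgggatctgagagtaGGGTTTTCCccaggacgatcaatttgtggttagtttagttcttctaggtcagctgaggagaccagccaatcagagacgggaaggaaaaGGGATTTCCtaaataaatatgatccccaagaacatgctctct
The letters searched, on both strands, were GAAANNGAA for the ISRE core, GGGNNTTCC (short gap) and GGGNNNTTC (long gap) for NF-kB, TGANTCA for AP-1 and TTCNNNGAA for the interferon-gamma-activated site (GAS). They were chosen after the sequences had been seen. Cxcl10 held the ISRE core at -213 to -205 from the start, the long-gap NF-kB motif at -159 to -151 and at -104 to -96, and AP-1 at -74 to -68. The short-gap NF-kB motif overlapped the second of these, at -103 to -95. Cxcl9 held the ISRE core at -175 to -167, the long-gap NF-kB motif on the opposite strand at -154 to -146, and the short-gap one at -130 to -122 and at -42 to -34. The AP-1 letters were in the Cxcl10 window alone, and the GAS letters were in neither. Among 32851 windows of the same length, 7.13% held the ISRE core, 4.98% the short-gap and 11.8% the long-gap NF-kB motif, 6.75% AP-1 and 7.02% GAS. Of the 14 interferon-stimulated genes described below, 8 held the ISRE core, 0 the short-gap and 4 the long-gap NF-kB motif. A match is a description of letters and not of binding. No other letters were searched, so a window without the GAS letters may still hold another response element.

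**Figure D1:**
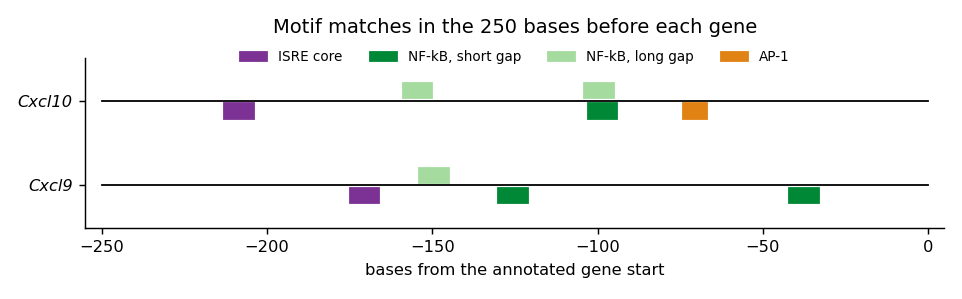
Matches to the searched motifs in the 250 bases before the annotated start of Cxcl10 (top line) and Cxcl9 (bottom line), with distance from the start in bases on the horizontal axis. Both lines carry an ISRE core and NF-kB matches, and the AP-1 match is on the Cxcl10 line alone.

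Between 48.8% and 57.1% of spots on an array were well above background, and 0 spots were saturated. Levels are given as log2 signal relative to the array's 75th percentile, and they are compared between arrays of the same probe only. The arrays lay on 2 slides. Slide 1 carried the 6 WT arrays with replicates 1 and 2 of KO PBS, and slide 2 the remaining KO PBS array, replicate 3, with the KO LPS arrays. KO and WT cells after LPS therefore never shared a slide, and a slide term in the fit rests on KO PBS replicate 3 against replicates 1 and 2. The probe for Gpr15 rose well above background on 0 arrays, so it did not check the KO label. Xist was well above background in WT cells and the Y-linked genes in KO cells, so sex and genotype cannot be told apart.

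All 11 macrophage markers were well above background on all 12 arrays. Their signals, each relative to the array's 75th percentile and summed, were 721 to 746 in KO LPS, 706 to 782 in WT LPS, 722 to 802 in KO PBS and 698 to 761 in WT PBS. Of the 10 T-cell markers, 9 were above background on all arrays, and their sum was lower after LPS, at 18.6 to 20.5 in KO LPS and 16.2 to 18.5 in WT LPS, against 26.2 to 28.6 in KO PBS and 27.3 to 33.3 in WT PBS. Of the 8 NK-cell markers, 4 were above background on all arrays, and the defining Ncr1, Klrb1c and Eomes were above background on 0 arrays. The NK-cell sum was 2.67 to 3.18 in KO LPS, 3.09 to 7.07 in WT LPS, 1.38 to 1.62 in KO PBS and 1.16 to 1.86 in WT PBS. The 8 B-cell markers summed to 56.6 to 57.7 in KO LPS, 68.6 to 83 in WT LPS, 107 to 113 in KO PBS and 124 to 162 in WT PBS. The dendritic-cell list, which holds activation genes such as Ccr7, summed to 74.3 to 81.8, 82.1 to 89.9, 24.6 to 27.6 and 28.2 to 34.5 in the same groups. Of 7 neutrophil markers on the array 4 were above background on all arrays, Cxcr2 and Ngp on 0 arrays, and their sum was 7.89 to 9.99 in KO LPS, 4 to 10.3 in WT LPS, 5.81 to 9.05 in KO PBS and 3.11 to 4.11 in WT PBS. It was thus higher in KO than in WT in PBS without overlap, while 30.5% of single genes did not overlap there. The B-cell, dendritic-cell and mast-cell sums were lower in KO in PBS, also without overlap. Of 5 neutrophil markers tested in PBS, 2 were called, both higher in KO, and the median log2 difference of the 5 was 0.59. One of the 2 was S100a9, higher by 2.64 ± 0.50 on the log2 scale (limma, adjusted p = 0.00562). The 5 mast-cell markers summed to 72.7 to 74.6 in KO LPS, 84.1 to 104 in WT LPS, 56.6 to 64.9 in KO PBS and 65.6 to 87.2 in WT PBS. Fewer cells of a type and less RNA per cell cannot be told apart in such samples, and the part of these lists in the results below was not tested.

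The first comparison asked how LPS changed the chemokine genes in each genotype. Cxcl10 and Ccl5 rose strongly in KO and in WT cells, by 6.48-fold and 4.21-fold in KO and by 26.3-fold and 7.67-fold in WT. Cxcl9 did not pass the unpaired test in either genotype and varied more between replicates than Cxcl10 and Ccl5. With replicate number as a block it passed in WT cells (limma, adjusted p = 0.00701). In KO cells 2 of the 3 measured genes were called (limma, adjusted p under 0.05), as were 67.0% of all genes tested, and in WT cells 2 of 3, as were 64.7% of all genes. Most genes were called in either genotype, so the size of the change is what is described here.

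Cxcl10 stood at 6.12, 6.20 and 6.09 on the KO LPS arrays and at 6.64, 6.76 and 6.39 on the WT LPS arrays. In PBS it stood at 3.36, 3.72 and 3.23 in KO cells and at 1.90, 1.69 and 2.04 in WT cells. The 4 groups did not overlap, as LPS and PBS arrays did not for 72.1% of genes in KO cells and 69.4% in WT cells: WT LPS was highest, then KO LPS, then KO PBS, and WT PBS was lowest. In signal units, the group means were 34750 ± 2080 in KO LPS, 46180 ± 4970 in WT LPS, 5718 ± 940 in KO PBS and 1952 ± 268 in WT PBS (SD, n = 3 each). The log2 difference between LPS and PBS was 2.70 ± 0.13 in KO cells (± standard error of the limma fit, adjusted p = 8.71e-09) and 4.72 ± 0.13 in WT cells (limma, adjusted p = 1.95e-10). Counted from the largest rise among 13283 genes, Cxcl10 ranked 89 in KO cells and 7 in WT cells. Within slide 2, which holds 1 KO PBS array, the KO difference was 2.90, and the WT arrays all shared slide 1.

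Ccl5 stood at 7.52, 7.60 and 7.18 in KO LPS and at 8.05, 8.17 and 7.88 in WT LPS. In PBS it stood at 5.42, 5.57 and 5.08 in KO cells and at 5.16, 5.22 and 4.91 in WT cells. Both LPS groups lay above both PBS groups, the LPS groups did not overlap each other, and the PBS groups did. The log2 rise was 2.07 ± 0.14 in KO cells (limma, adjusted p = 1.37e-07, rank 200) and 2.94 ± 0.14 in WT cells (limma, adjusted p = 6.47e-09, rank 67). Taken by replicate number, the rise was 2.09, 2.03 and 2.10 in KO and 2.89, 2.95 and 2.97 in WT, so it spread less than the levels themselves. Equal numbers were not shown to pair the KO arrays. Against the 1 KO PBS array of slide 2 the KO rise was 2.35.

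Cxcl9 stood at -0.50, -0.16 and -1.19 in KO LPS and at -0.86, -0.65 and -1.70 in WT LPS. In PBS it stood at -1.01, -0.41 and -1.49 in KO cells and at -1.50, -1.37 and -3.87 in WT cells. The groups overlapped, and replicate 3 was the lowest array in all 4 groups. The log2 difference between LPS and PBS was 0.36 ± 0.57 in KO cells (limma, adjusted p = 0.598) and 1.18 ± 0.57 in WT cells (limma, adjusted p = 0.0928), with a 95% interval in WT of -0.08 to 2.43. With replicate number as a block the WT difference passed the test (limma, adjusted p = 0.00701, and 0.0136 in WT arrays alone). Against the 1 KO PBS array of slide 2, the lowest of its group, the KO difference was 0.87. By replicate number the difference was 0.52, 0.25 and 0.30 in KO and 0.64, 0.72 and 2.16 in WT, and equal numbers were not shown to pair the KO arrays. The size of the WT difference depended on 1 array: without WT PBS replicate 3 it was 0.36, and without WT PBS replicate 2 it was 1.61 (limma, adjusted p = 0.0353). These unpaired fits kept the WT LPS array of the same number, and WT LPS replicate 3 was the lowest of its group.

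**Figure D2:**
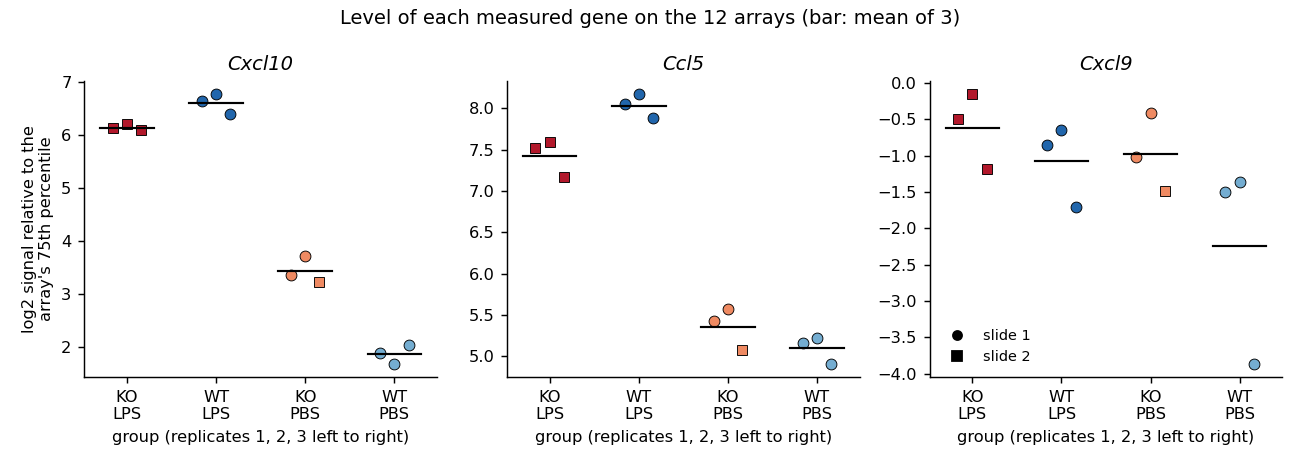
Level of Cxcl10, Ccl5 and Cxcl9 on each array, as log2 signal relative to the array's 75th percentile on the vertical axis, by group on the horizontal axis; circles are slide 1, squares are slide 2 and bars are means of 3 arrays. Cxcl10 separates all 4 groups, Ccl5 separates LPS from PBS, and Cxcl9 groups overlap.

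The next comparison asked whether the knockout altered the chemokine genes in cells given PBS. Cxcl10 was 2.95-fold higher in KO than in WT cells, and neither Cxcl9 nor Ccl5 passed the test. Thus 1 of 3 genes was called, against 14.1% of all genes in either direction, 1070 of them higher and 804 lower in KO. Scaling each array to its median instead gave 659 higher and 861 lower. The log2 difference for Cxcl10 was 1.56 ± 0.13 (limma, adjusted p = 3.48e-05), rank 41 among the largest. All 3 KO PBS arrays lay above all 3 WT PBS arrays, a separation shown by 30.5% of genes. The lowest KO array was at 3.23 and the highest WT array at 2.04. Between the 5 arrays of slide 1 alone the difference was 1.66 (limma, adjusted p = 0.00161).

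Cxcl9 differed between KO and WT cells in PBS by 1.27 ± 0.57 (limma, adjusted p = 0.161, unadjusted p = 0.0473). The low WT PBS replicate 3 enters this value, and without it the difference was 0.46. Within slide 1 it was 1.53 (limma, adjusted p = 0.218). Ccl5 differed by 0.26 ± 0.14 (limma, adjusted p = 0.237), with a 95% interval of -0.05 to 0.57, so a rise in KO of up to 0.57 on the log2 scale lies within it. The Ccl5 arrays of KO PBS and WT PBS overlapped, and within slide 1 the difference was 0.40 (limma, adjusted p = 0.0678). With replicate number as a block Cxcl9 and Ccl5 both passed (limma, adjusted p = 0.0238 and 0.0101). Equal numbers were not shown to pair KO with WT arrays.

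After LPS, Cxcl10 and Ccl5 were lower in KO than in WT cells, by 1.38-fold and 1.52-fold, differences that were not called with slide as a term. Here 2 of 3 genes were called, against 39.5% of all genes, 2653 higher and 2589 lower in KO (1729 higher and 4003 lower with median scaling). The log2 differences were -0.46 ± 0.13 for Cxcl10 (limma, adjusted p = 0.0155) and -0.60 ± 0.14 for Ccl5 (limma, adjusted p = 0.00642). For each of these genes the 3 KO LPS arrays lay below the 3 WT LPS arrays, as groups did not overlap for 58.4% of genes. Median scaling shifted every gene by -0.11 in this comparison, to -0.57 for Cxcl10 and -0.71 for Ccl5. Cxcl9 was not called, at 0.46 ± 0.57 (limma, adjusted p = 0.553).

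KO LPS and WT LPS arrays lay on different slides. With slide as a term, Cxcl10 differed by -0.15 ± 0.22 (limma, adjusted p = 0.73) and Ccl5 by -0.18 ± 0.22 (limma, adjusted p = 0.666), so neither passed, and 5.84% of all genes did. Among KO PBS arrays, the array of slide 2 was lower than the mean of the slide 1 arrays by a difference of -0.31 for Cxcl10, -0.42 for Ccl5 and -0.78 for Cxcl9, while the median over all genes was -0.03. That array is also replicate 3, and replicate 3 was the lowest array of every group for Ccl5 and Cxcl9 on either slide. Slide and genotype after LPS cannot be told apart. The call for Cxcl10 was also lost without WT LPS replicate 1, WT LPS replicate 2 or KO LPS replicate 3 (limma, adjusted p = 0.0508, 0.0642 and 0.0526).

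The interaction asked whether the response to LPS itself differed between genotypes. The Cxcl10 response was 4.06-fold smaller in KO than in WT cells, and the Ccl5 response was 1.82-fold smaller. Of the 3 genes 2 were called, against 4.31% of all genes (573 genes, and 360 to 2797 with 1 array left out). For Cxcl10 the log2 difference in response was -2.02 ± 0.18 (limma, adjusted p = 4.54e-05), with a 95% interval of -2.42 to -1.62, rank 25 from the most negative. By replicate number the Cxcl10 rise was 2.76, 2.47 and 2.85 in KO and 4.74, 5.07 and 4.35 in WT. Equal numbers were not shown to pair the KO arrays, so the KO values are not separate measured responses. The interaction is the difference after LPS (-0.46) less the difference in PBS (1.56), so most of it lay in the PBS cells.

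For Ccl5 the difference in response was -0.87 ± 0.20 (limma, adjusted p = 0.0301), made of -0.60 after LPS less 0.26 in PBS. With slide as a term the value for Cxcl10 was -1.82 ± 0.21 (limma, adjusted p = 0.000762) and for Ccl5 -0.59 ± 0.21 (limma, adjusted p = 0.223), where 2.96% of all genes were called. The Ccl5 value is then made of -0.18 after LPS less 0.40 in PBS, so its split between PBS and LPS cells turned with this term. The Ccl5 call was near the threshold, and it was lost in 7 of the 12 fits that each left out 1 array. Cxcl9 gave -0.82 ± 0.81 (limma, adjusted p = 0.596), with an interval of -2.60 to 0.96 that holds values as large as that of Cxcl10.

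**Figure D3:**
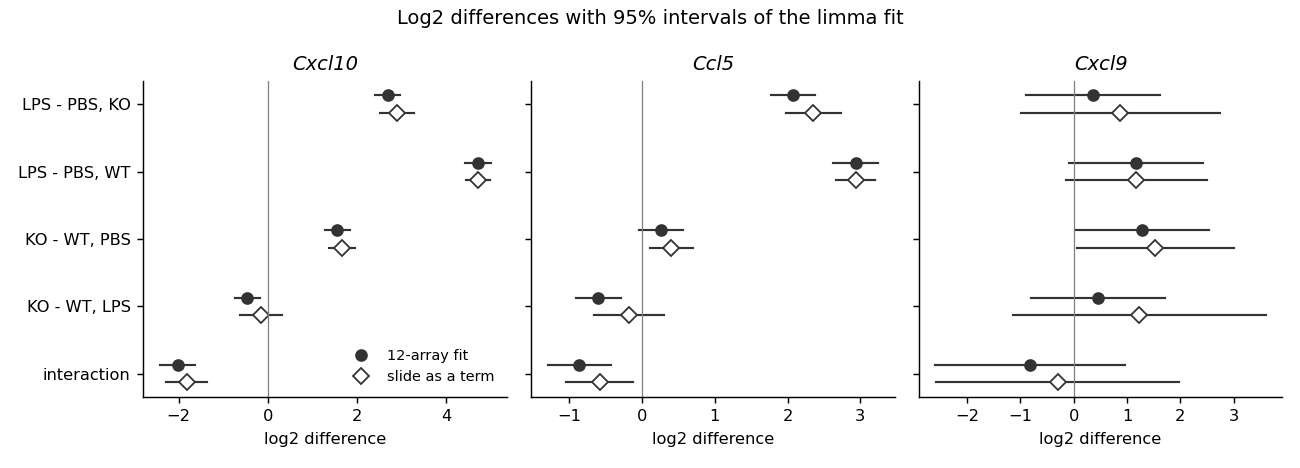
Log2 differences of Cxcl10, Ccl5 and Cxcl9 in the 5 comparisons, with 95% intervals, from the fit over 12 arrays (filled circles) and with slide as a term (open diamonds). The intervals for Cxcl10 exclude 0 in both fits in 4 comparisons, and with the slide term the KO minus WT differences after LPS reach 0 for Cxcl10 and Ccl5.

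Among genes whose products receive or clear these ligands, Cxcr3, Ackr2 and Dpp4 are described. Cxcr3, the receptor of Cxcl9 and Cxcl10, was -1.75, -1.73 and -1.59 in KO LPS, -1.52, -1.37 and -1.82 in WT LPS, -1.32, -1.31 and -1.41 in KO PBS and -0.75, -0.67 and -0.85 in WT PBS. Its level was lower in KO than in WT cells in PBS by a log2 difference of -0.59 ± 0.11 (limma, adjusted p = 0.00462), opposite in sign to Cxcl10. It fell by 0.34 ± 0.11 after LPS in KO cells (limma, adjusted p = 0.0152, but 0.15 with slide as a term) and fell by 0.81 ± 0.11 in WT cells (limma, adjusted p = 3.56e-05). Ackr2, a scavenger of CC chemokines, fell at least 9.21-fold with LPS in KO cells (limma, adjusted p = 5.62e-06), where it was not well above background after LPS. In WT cells it was at -4.70, -2.67 and -2.76 after LPS, the first not well above background, against -0.95, -1.29 and -0.76 in PBS. Dpp4, a peptidase that trims these chemokines, fell by 0.79 in KO cells after LPS (limma, adjusted p = 0.000765). In WT cells Dpp4 was not called for LPS, at a log2 difference of -0.13.

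Other CC chemokines of the list chosen for comparison also moved with LPS but were called between genotypes in 0 of 6 cases, in PBS, after LPS and in the interaction alike. Of all genes 14.1%, 39.5% and 4.31% were called there. With so few genes, a count of 0 does not set this list apart in PBS or in the interaction. At an unadjusted p under 0.05 the limma counts were 1 in PBS, 2 after LPS and 1 in the interaction. Ccl7 differed by -1.26 ± 0.57 in PBS (limma, adjusted p = 0.162) and Ccl3 by 0.25 ± 0.09 after LPS (limma, adjusted p = 0.0512). Of the 6, 3 rose and 2 fell in KO cells, and 3 rose and 3 fell in WT cells. For LPS 67.0% of all genes were called in KO and 64.7% in WT. Ccl3 rose by 2.29 in KO and 1.97 in WT, and Ccl4 by 2.32 and 2.15 in KO and WT. Ccl24, an eosinophil chemokine, fell by 1.93 in KO and by 1.90 in WT. Ccl3 and Ccl4 thus had point estimates slightly larger in KO, whereas that of Ccl5 was smaller.

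Other CXC chemokines rose in 5 and fell in 2 of 9 cases in either genotype. With 67.0% of all genes called for LPS in KO and 64.7% in WT, these counts do not set the list apart. The neutrophil attractants Cxcl1, Cxcl2 and Cxcl3 rose by 1.81, 2.09 and 2.36 in KO and by 2.25, 1.48 and 1.48 in WT. In PBS 2 of the 9 were higher and 5 lower in KO, Cxcl1 by 2.03 ± 0.11 (limma, adjusted p = 6.75e-07). In the interaction 1 of 9 was called, Cxcl3 at 0.88 ± 0.14 (limma, adjusted p = 0.00247), the sign opposite to that of Cxcl10 and Ccl5. Of all genes 14.1% were called in PBS and 4.31% in the interaction.

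Genes between TLR4 and interferon-beta gave 5 rises and 2 falls of 11 in KO cells, and 7 rises and 2 falls in WT, where 67.0% and 64.7% of all genes were called in KO and WT. Irf7, which amplifies interferon transcription, rose by 0.70 ± 0.08 in KO and 2.22 ± 0.08 in WT, and its interaction was -1.52 ± 0.11 (limma, adjusted p = 2.43e-05). The kinase gene Tbk1 was the other of 2 called in the interaction, at -0.35 ± 0.08, against 4.31% of all genes called. Tbk1 lost the call with slide as a term (limma, adjusted p = 0.163). Ifnb1, the interferon-beta gene, was near background: its probe was well above it on 3 of 3 KO LPS arrays, 1 of 3 WT LPS arrays, 0 of 3 KO PBS arrays and 1 of 3 WT PBS arrays. It was not called for LPS in KO or in WT cells (limma, adjusted p = 0.168 and 0.418), and with so many arrays near background no fold is given.

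Interferon receptors and transducers included genes with the signs of Cxcl10. Of 15 tested, 7 were higher and 2 lower in KO in PBS, 0 higher and 6 lower after LPS, and 0 higher and 5 lower in the interaction. Of all genes 14.1%, 39.5% and 4.31% were called in these comparisons, so the count after LPS lay near that share. With slide as a term 7 were higher in PBS, 4 were lower after LPS and 4 were lower in the interaction. In that fit 5.84% of all genes were called after LPS and 2.96% in the interaction. Usp18, an inhibitor of type I interferon signalling, was 0.97 ± 0.11 higher in KO in PBS and differed by -1.13 ± 0.11 after LPS. Stat2, a transcription factor of type I interferon signalling, differed by 0.41 ± 0.08 in PBS and by -0.69 ± 0.08 after LPS (limma, adjusted p = 0.00648 and 0.000126). The interaction was -2.10 ± 0.16 for Usp18 and -1.09 ± 0.11 for Stat2.

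The 14 interferon-stimulated genes on the array, such as Isg20, Oasl2, Ifit3 and Cmpk2, which act in antiviral defence, had the signs of Cxcl10 in both genotype comparisons and the interaction. All 14 were higher in KO in PBS (median 0.91), 13 were lower after LPS (median -0.91), and all 14 had a smaller response in KO (median -1.70). In these comparisons 14.1%, 39.5% and 4.31% of all genes were called in either direction. Their median rise with LPS was 0.65 in KO and 2.60 in WT, with 10 and 14 called (of all genes 67.0% and 64.7%). With slide as a term, 13 were higher in PBS, 10 were lower after LPS and 14 had a smaller response. In Cxcl10 the KO and WT levels after LPS were closer (-0.46) than in PBS (1.56), whereas the medians of these genes were equally far from 0. With slide as a term Cxcl10 was at -0.15 after LPS and 1.66 in PBS, and the medians were -1.13 and 0.87. In that fit Gbp2, Gbp3 and Gbp5 of the list were also closer after LPS (-0.54, -0.32 and 0.13) than in PBS (1.06, 0.92 and 1.21). The other genes of the list were farther apart after LPS.

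By contrast, all 10 NF-kB subunits and inhibitors rose with LPS in KO and in WT, with medians of 1.15 and 1.17. Of them 1 was called in each genotype comparison, Nfkb2 by 0.28 ± 0.06 in PBS and by 0.36 ± 0.06 after LPS, and 1 in the interaction, Relb at -0.28 ± 0.07 (limma, adjusted p = 0.0424). The shares of all genes called were 67.0% for LPS in KO and 64.7% for LPS in WT. For KO against WT they were 14.1% in PBS and 39.5% after LPS, and for the interaction 4.31%. With slide as a term Nfkb2 after LPS and Relb in the interaction lost their calls (limma, adjusted p = 0.2 and 0.203). Nfkbiz and Nfkbia, both induced by NF-kB, rose in KO by 2.75 ± 0.14 and 1.71 ± 0.12. The KO minus WT difference in response of -0.87 for Ccl5 compares with -0.34 to 0.20 (median -0.10) for NF-kB genes, -2.67 to -0.79 (median -1.70) for interferon-stimulated genes and a median of -0.01 for all genes. With slide as a term Ccl5 was at -0.59 (limma, adjusted p = 0.223), outside the range of either list. In that fit the ranges were -0.19 to 0.25 for NF-kB genes and -2.94 to -0.85 for interferon-stimulated genes. No difference between Ccl5 and these lists was tested.

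**Figure D4:**
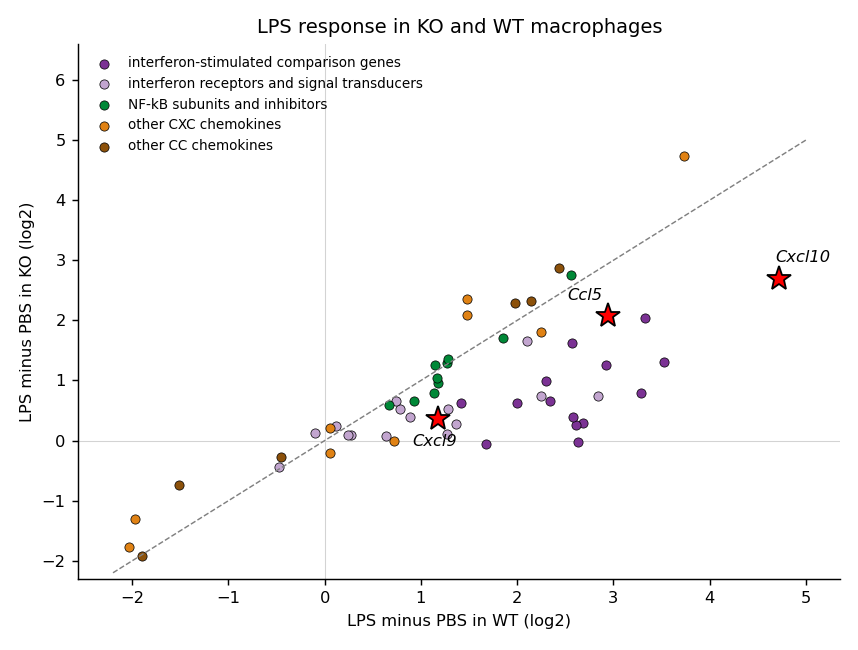
LPS minus PBS in KO cells (vertical axis, log2) against the same in WT cells (horizontal axis, log2) for Cxcl10, Ccl5 and Cxcl9 (stars) and for genes of 5 lists (points); the dashed line marks equal responses. Interferon-stimulated genes and Cxcl10 lie below the line, and NF-kB genes lie near it; the point for Ppbp, a CXC chemokine gene, is a measured value near background.

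The spread of Cxcl9 was itself large. Its pooled standard deviation within groups was 0.845, exceeded by 0.527% of genes, against a median of 0.111 over all genes, 0.184 for Cxcl10 and 0.201 for Ccl5. Replicate 3 was lowest in all 4 groups for 4.2% of genes, Cxcl9 and Ccl5 among them. Ifng, the interferon-gamma gene, was singled out here after its values were seen. It stood at -0.97, -0.72 and -2.38 in KO LPS, at -1.02, -0.66 and -4.12 in WT LPS, at -2.11, -1.34 and -2.86 in KO PBS and at -3.38, -2.86 and -6.29 in WT PBS. Replicate 3 was again the lowest array of each group, and both WT replicate 3 arrays were not well above background. Its pooled standard deviation of 1.45 was exceeded by 0.0226% of genes.

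The interferon-responsive Gbp2 and Gbp5, the kinase gene Ikbke and Ccl24 also had replicate 3 lowest in all 4 groups. Of the 9 T-cell and 5 NK-cell markers tested, 0 had this pattern, nor did any of the 11 macrophage markers. Ifng differed between LPS and PBS by 0.75 ± 0.98 in KO and by 2.24 ± 0.98 in WT (limma, adjusted p = 0.517 and 0.0639). Of the NK-cell list, Gzma and Gzmb, granule protease genes, rose with LPS by 1.80 and 2.45 in KO (limma, adjusted p = 0.000126 and 0.0043) and by 2.27 and 4.00 in WT (limma, adjusted p = 1.71e-05 and 0.000119). Of the other 3 tested, Klrk1 fell by 0.42 in KO (limma, adjusted p = 0.0135), Prf1 rose by 0.45 in KO (limma, adjusted p = 0.021) and Nkg7 was called in neither genotype. Whether lymphocytes took part in the Cxcl9 values was not tested.

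**Figure D5:**
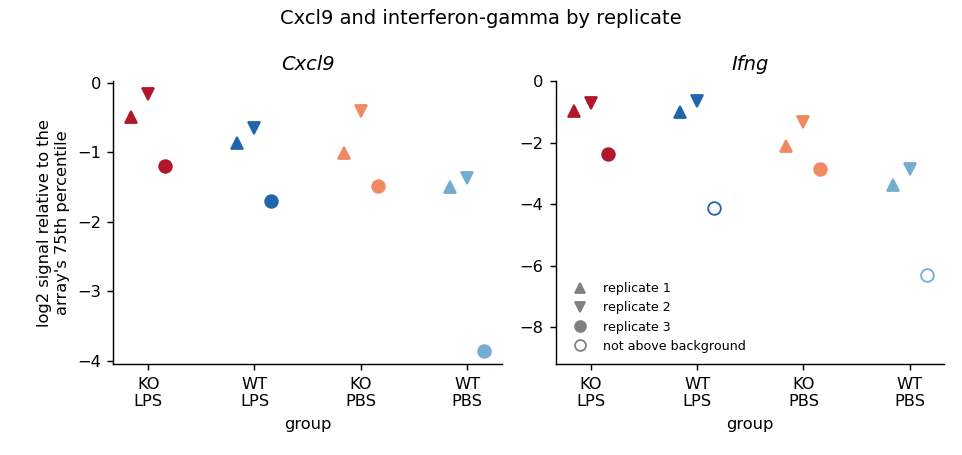
Levels of Cxcl9 and of Ifng on each array, as log2 signal relative to the array's 75th percentile on the vertical axis, by group, with a symbol for each replicate number; open symbols were not well above background. Replicate 3 is the lowest point of every group for both genes, and lowest of all in WT PBS.

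The genes most like each chemokine gene over the 12 arrays were found from the root mean square difference between centred log2 levels, among 12430 genes. For Cxcl10 they were Lcn2 (0.51), Tnip3 (0.52), Perm1 (0.62), Plat (0.62) and Drd1 (0.63), against a median of 1.94 over all genes. Lcn2, which sequesters iron-carrying siderophores of bacteria, was higher in KO in PBS by 0.82 and rose with LPS by 3.06 in KO and 4.35 in WT. For Ccl5 they were the co-stimulatory receptor gene Cd40 (0.22), the transcription factor gene Batf (0.23), Noct (0.24), Adarb1 (0.25) and Tpbg (0.25), against a median of 1.29. For Cxcl9 they were Cxadr (0.48), Tmem171 (0.50), Xcl1 (0.52), Serpina3f (0.55) and Calhm6 (0.57), against a median of 0.94. Between themselves, Cxcl10 and Ccl5 differed by 0.78, Cxcl9 and Ccl5 by 1.16 and Cxcl9 and Cxcl10 by 1.66. Counted over all 13283 genes tested, 30 genes were nearer to Cxcl10 than Ccl5 was. All these values come from the same 12 arrays and share their groups.

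Neighbouring genes did not share the size of the Cxcl10 change. Next to the Cxcl9, Cxcl10 and Cxcl11 cluster on chromosome 5, Sdad1 rose with LPS by 1.03 in KO and 1.22 in WT, Nup54 rose by 0.52 in KO and 0.71 in WT, and Naaa fell by 0.83 in KO and by 0.50 in WT. Scarb2 differed by -0.37 in KO (limma, adjusted p = 0.000872) and by -0.04 in WT (limma, adjusted p = 0.638). Around Ccl5 on chromosome 11, Taf15 rose by 0.74 in KO and 0.73 in WT, and Mmp28 was not called for LPS in either genotype. The chemokine genes beside it went apart: Ccl3 rose in both genotypes, Ccl6 differed by -0.74 in KO (limma, adjusted p = 0.0335, but 0.156 with slide as a term) and by -1.52 in WT, and Ccl9 differed by -0.28 in KO and by -0.45 in WT. Of these 9 neighbours 0 were called in the interaction by limma, where 4.31% of all genes were, and 3 (Ccl3, Naaa and Scarb2) had an unadjusted p under 0.05. There the value for Sdad1 was -0.19 (limma, adjusted p = 0.294) and that for Ccl3 was 0.32 (limma, adjusted p = 0.197).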

How the data were processed

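Each deposited file gives 1 array's spot intensities with quality flags, per the file headers. They were made with Agilent Feature Extraction 11.5.1.1, per the submitters' processing notes. The authors deposited these values per array, without scaling between arrays. Groups and replicate numbers came from the titles. Of 62976 spots 3671 are controls. From the log2 processed signal the 75th percentile of the array was subtracted, marked spots (76 to 125 per array) were left out, and spots of a probe were averaged. Of 56605 probes 32994 had a symbol through a RefSeq table of GRCm38.p6. Probes had to be well above background on every array of some group (28827 probes), and the brightest kept probe stood for a gene (13283 genes). The files' positions were not used.

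One limma fit (limma 3.58.1, R 4.3.3, empirical Bayes with a variance trend) gave a mean per group over 12 arrays. Tests were two-sided, adjusted by Benjamini-Hochberg over all 13283 genes, with a threshold of 0.05. The steps were tested on simulated data. The number of arrays limits the precision. A fold given as "at least" uses, on each array, the lowest signal well above background.

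The genes and lists were chosen with earlier results of these data known. The chemokine genes, Gpr15, Ifnb1 and Cxcr3 were always named. From each list up to 4 called genes with the smallest p were named (2 if none was called), with 5 genes of nearest pattern per chemokine gene and 3 neighbours on each side. Some list genes that this rule names are not reported here. Other genes, such as Ifng, Gbp2, S100a9 and the NK-cell markers, were named after their values were seen.

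Residuals of equally numbered arrays correlated across genes at 0.105, 0.371 and 0.481 for LPS in WT, so the numbers were taken to pair the WT arrays. The main fit held no term for this pairing, and the replicate block was run as an alternative. The correlations were 0.0405, 0.113 and 0.0807 for LPS in KO, -0.042, -0.0685 and -0.102 for KO against WT in PBS, and 0.0167, -0.00325 and -0.0446 after LPS. Those comparisons were not treated as paired. No arrays were copies: the median difference was 0.0594 to 0.175 within groups and 0.133 to 0.478 between them. Alternatives were quantile normalization, median scaling, normexp background (offset 50, on median signals), other filters and probe rules, no variance trend, replicate and slide terms, single slides and leaving out each array.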

Additional observations from a re-analysis of the deposited data

Results flagged for a closer look

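The results below stand out because the response to LPS differed between KO and WT cells in a test of that difference (limma, adjusted p under 0.05); each value is the log2 response in KO minus that in WT. Cxcl10 gave -2.02 and Ccl5 gave -0.87. Among the interferon-stimulated genes Ifit3 gave -2.67, Cmpk2 -2.38, Oasl2 -1.68 and Isg20 -1.67. Among the transducers Usp18 gave -2.10, Stat2 -1.09 and Irf9 -0.50. Irf7 gave -1.52, Tbk1 -0.35 and the NF-kB subunit gene Relb -0.28. With slide as a term Ccl5, Tbk1 and Relb lost their calls (limma, adjusted p = 0.223, 0.163 and 0.203). Cxcl3 alone in this group had a larger response in KO, at 0.88.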

How the results depend on the processing

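Over the 3 measured chemokine genes and 5 comparisons together, 306 alternative values left the call and direction as reported, 16 lost a call, 5 gained one and 0 turned the direction. Cxcl10 stayed called in all settings run for LPS in KO (2.57 to 2.90), LPS in WT (4.56 to 4.82), KO against WT in PBS (1.42 to 1.66) and the interaction (-2.12 to -1.82). The Ccl5 interaction lost its call with quantile normalization (-0.70, adjusted p = 0.0624), without the filter on dim probes (-0.87, adjusted p = 0.0546), without a variance trend (-0.87, adjusted p = 0.0557) and with a slide term (-0.59). Leaving out 1 array at a time gave -1.01 to -0.74 for it, with adjusted p up to 0.0876, and -0.56 to -0.38 for Cxcl10 in KO against WT after LPS. With a slide term KO against WT after LPS gave -0.15 for Cxcl10, -0.18 for Ccl5 and 776 genes in place of 5242. With the replicate block, Cxcl9 passed for LPS in WT (1.18, the same in WT arrays alone) and for KO against WT in PBS (1.27, adjusted p = 0.0238), as did Ccl5 in PBS (0.26, adjusted p = 0.0101); pairing was not shown for the genotype comparisons, and the block changed no other call of these genes. Without 1 array, Cxcl9 for LPS in WT was 0.36 to 1.61. Genes called for KO against WT in PBS were 1087 on slide 1 alone and 917 to 2579 without 1 array, in place of 1874. Interaction calls were 360 to 2797 without 1 array in place of 573, the highest without KO PBS replicate 3. The causes were not tested. Of Ifnb1 and Ifng, arrays near background limit the precision.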
